A study of Homo sapiens with 12 samples.

Results

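The cell cycle and mitosis genes described here are 47 of the 62262 genes in the deposited table, found by matching its Ensembl identifiers to a fixed list of symbols. Of these, 33 are mitotic genes, which act at the centromere, on the spindle or in the control of entry into and exit from mitosis. The other 14 are replication genes, which license and copy DNA or drive the passage from G1 into S phase. All 47 had entries in the table and all 47 passed the filter on low counts. The libraries hold poly(A) RNA of differentiated human podocytes of a conditionally immortalized line. There were 12 cultures in 4 groups of 3: cyclosporine A (CSA) at 100 nM, tacrolimus (TAC) at 100 nM, voclosporin (VCS) at 100 nM, and DMSO as the control. Every culture, DMSO included, carried the temperature-sensitive SV40 T gene that immortalizes the line. Cells were grown at 33 °C and were then held at 37 °C for 7 to 10 days, which inactivates T antigen and lets them differentiate. The inhibitor or DMSO was then given for 24 h. All libraries come from the same line. The sources used here do not say whether the replicates came from separate passages, flasks or days. The p-values therefore measure only the spread between these samples, which may be technical.

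Podocytes cover the outside of the glomerular capillaries and in the adult kidney are terminally differentiated cells that scarcely divide. All 3 compounds block calcineurin, a phosphatase switched on by calcium that lets NFAT proteins enter the nucleus. CSA and its structural analog VCS are cyclic peptides that act bound to cyclophilins, whereas TAC is a macrolide that acts bound to FK506-binding proteins. Dividing cells copy their genome once per cycle. In G1 the MCM helicase is loaded onto origins by CDC6 and CDT1, and RB-family proteins hold E2F factors in check until cyclin E and its kinase release them. SV40 large T antigen binds RB-family proteins and so frees E2F. Its inactivation at the higher temperature is meant to let cells of such lines leave the cycle. How far these cultures had left it was not measured. Mitotic genes are switched on later, in G2 and M, by complexes of B-MYB and FOXM1 that act through a CHR element. Their promoters often hold CCAAT boxes as well. In resting cells the DREAM complex represses these mitotic genes. Messenger levels of the replication genes follow E2F, so the replication and mitotic genes mark successive stretches of the cycle.

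The promoters of both classes were searched for these elements. RefSeq promoter windows on GRCh38.p14, from 250 bases before to 50 bases after the annotated start, were matched by symbol for 38 of the 47 genes, 27 mitotic and 11 replication. The CHR core TTTGAA, searched on both strands, was found in 19 of the 27 mitotic windows (70.4%) and 0 of the 11 replication windows, against 15.2% of all 35116 windows of the same length. CCAAT on either strand was found in 22 mitotic windows (81.5%) and 7 replication windows (63.6%), against 34.6% of all windows. The E2F motif was searched as TTCCCGC, with the further forms TTGGCGC, then TTCGCGC, and lastly TTGCCGC, on both strands, where matches can overlap. It was found in 7 mitotic windows (25.9%) and 9 replication windows (81.8%), against 13% of all windows. A CHR core together with a CCAAT box was found in 16 mitotic windows (59.3%) and no replication window, against 5.9% of all windows. The windows of CENPE, KIF2C and CCNE1 held none of these letters. MKI67 and TOP2A are shown because they carry the mitotic pair of motifs, and MCM2 and MCM7 because they carry the replication motif. They are written 5′ to 3′ on the strand of the gene, with the matches in capitals (TTTGAA and CCAAT or their reverse complements in the first pair, the E2F motifs or their reverse complements in the second pair). A match is a description of the letters and was not tested as a binding site. The windows are MKI67 at chr10:128126374-128126673 on the minus strand, TOP2A at chr17:40417847-40418146 on the minus strand, MCM2 at chr3:127598161-127598460 on the plus strand and MCM7 at chr7:100101348-100101647 on the minus strand.
MKI67: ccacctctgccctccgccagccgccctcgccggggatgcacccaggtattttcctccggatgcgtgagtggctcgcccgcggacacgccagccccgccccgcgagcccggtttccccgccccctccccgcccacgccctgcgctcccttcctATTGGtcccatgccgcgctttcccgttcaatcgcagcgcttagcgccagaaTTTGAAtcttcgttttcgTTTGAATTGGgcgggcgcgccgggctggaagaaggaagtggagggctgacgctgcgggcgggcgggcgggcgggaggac
TOP2A: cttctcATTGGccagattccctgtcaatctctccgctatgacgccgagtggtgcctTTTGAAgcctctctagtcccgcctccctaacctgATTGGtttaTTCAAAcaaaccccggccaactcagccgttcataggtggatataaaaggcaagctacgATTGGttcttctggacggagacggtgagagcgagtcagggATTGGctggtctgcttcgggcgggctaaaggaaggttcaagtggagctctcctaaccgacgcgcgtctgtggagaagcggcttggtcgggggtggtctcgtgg
MCM2: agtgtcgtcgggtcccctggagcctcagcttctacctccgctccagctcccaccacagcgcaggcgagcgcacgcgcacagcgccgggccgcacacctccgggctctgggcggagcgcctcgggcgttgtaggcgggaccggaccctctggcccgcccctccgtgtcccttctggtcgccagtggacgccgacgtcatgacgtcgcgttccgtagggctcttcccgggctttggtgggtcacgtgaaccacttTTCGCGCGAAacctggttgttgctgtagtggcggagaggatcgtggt
MCM7: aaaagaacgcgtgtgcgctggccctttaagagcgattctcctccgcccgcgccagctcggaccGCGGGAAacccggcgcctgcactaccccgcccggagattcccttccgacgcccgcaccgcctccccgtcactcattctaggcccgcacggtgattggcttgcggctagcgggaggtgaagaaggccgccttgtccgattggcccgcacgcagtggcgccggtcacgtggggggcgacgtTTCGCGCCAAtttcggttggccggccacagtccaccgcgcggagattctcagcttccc

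Library totals ran from 28808213 to 36077072 counts. Among 11 podocyte markers, 8 passed the low-count filter, and the summed level of the list was 5720 to 5880 CPM in CSA cultures, 5460 to 5560 CPM in TAC cultures, 5240 to 5600 CPM in VCS cultures and 5260 to 5520 CPM in DMSO cultures, most of it from VIM and ACTN4. NPHS1, which encodes nephrin of the slit diaphragm and is a defining marker of mature podocytes, had only 1 to 11 counts per library. Markers of airway and basal epithelium summed to 12.5 to 20.5 CPM in CSA cultures, 15.8 to 21.3 CPM in TAC cultures, 18.8 to 55.9 CPM in VCS cultures and 21.2 to 42.8 CPM in DMSO cultures. Endothelial markers summed to 2.06 to 9.12 CPM over the 12 libraries, proximal tubule markers to 2.86 to 6.27 CPM and leukocyte markers to 56.2 to 90.1 CPM, the last mostly from CD68. How far these levels bear on the cell cycle genes was not tested. The library numbered 3 stood apart in every group, with 9.676 to 13.37% of its counts on mitochondrial genes, against 5.821 to 8.119% in the other libraries.

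The cell cycle genes were well expressed in all 4 groups. Between 0.437 and 0.563% of a library's counts fell on the 47 genes, with 0.531, 0.477 and 0.437% in CSA cultures, 0.563, 0.554 and 0.504% in TAC cultures, 0.473, 0.51 and 0.44% in VCS cultures and 0.489, 0.524 and 0.454% in DMSO cultures. TAC 1 held the largest share of the 12, and the TAC and DMSO groups overlapped, since TAC 3 lay below DMSO 2. Levels are in CPM, counts scaled by edgeR to the size of the library. In DMSO cultures the mitotic genes averaged from 7.98 CPM for CENPA, the centromeric histone H3 variant, to 356 CPM for TOP2A, the topoisomerase that untangles sister DNA, with a median of 60.1 CPM. The replication genes averaged from 25.6 CPM for CCNE1 (cyclin E1) to 439 CPM for PCNA, the sliding clamp of DNA polymerases, with a median of 133 CPM. Per kilobase of exon, the mitotic genes had a median level of 14.1 CPM per kb in DMSO cultures and the replication genes 28.1 CPM per kb. On that scale PCNA (298 CPM per kb) and TYMS (93.4 CPM per kb) lay above every mitotic gene, of which TPX2 (56.1 CPM per kb) and TOP2A (55.4 CPM per kb) were highest. The lowest count of any of the 47 genes in any library was 203, so depth did not limit their detection. Since these are bulk libraries, fewer cycling cells and less of each transcript per cycling cell cannot be told apart.

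**Figure D1:**
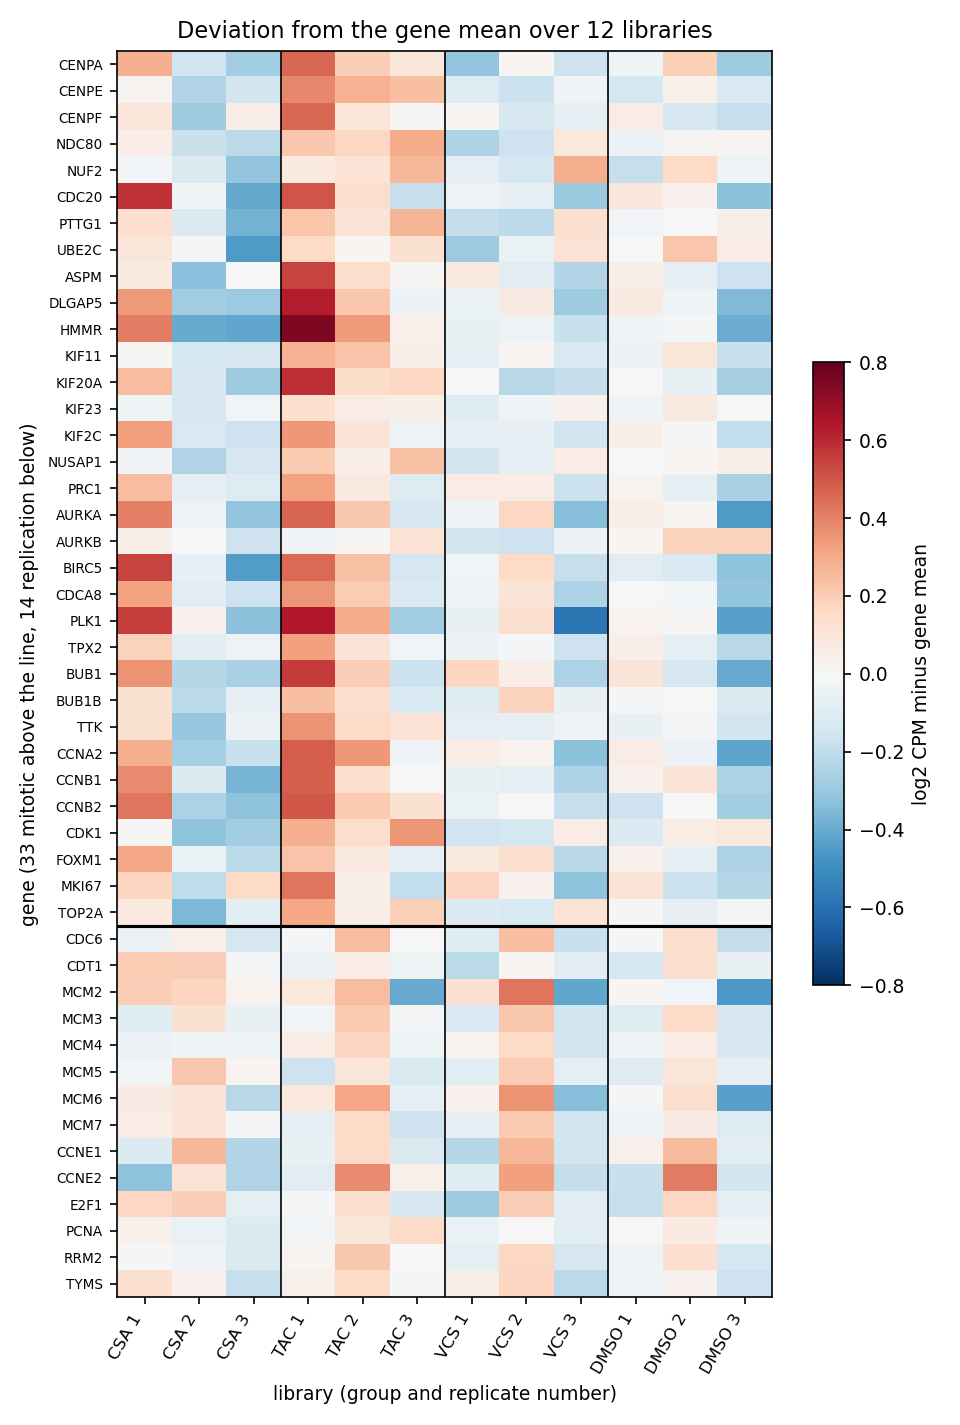
Each row is a cell cycle gene, 33 mitotic genes above the thick line and 14 replication genes below it, and each column a library; colour gives log2 CPM minus the gene's mean over the 12 libraries. The column of TAC 1 is red for the mitotic genes other than AURKB, and the columns numbered 2 are the reddest of their group for most replication genes.

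Over the 33 mitotic genes, the mean log2 CPM was 6.13 ± 0.17 in TAC cultures, 5.89 ± 0.23 in CSA cultures, 5.87 ± 0.05 in VCS cultures and 5.88 ± 0.11 in DMSO cultures (SD, n = 3 each). Library by library it was 6.16, 5.77 and 5.73 in CSA cultures, 6.31, 6.09 and 5.97 in TAC cultures, 5.88, 5.91 and 5.81 in VCS cultures and 5.94, 5.94 and 5.75 in DMSO cultures. All 3 TAC libraries lay above all DMSO and VCS libraries on this mean, while CSA 1 lay between TAC 2 and TAC 1. Over the 14 replication genes it was 6.99, 7.08 and 6.88 in CSA cultures, 6.96, 7.16 and 6.91 in TAC cultures, 6.90, 7.19 and 6.80 in VCS cultures and 6.92, 7.10 and 6.82 in DMSO cultures. The group means of the replication genes, 6.98 ± 0.10 with CSA, 7.01 ± 0.13 with TAC, 6.96 ± 0.20 with VCS and 6.95 ± 0.15 with DMSO, lay closer together than the pooled spread within groups of 0.15. TAC 1 was the library with the highest level for 23 of the 33 mitotic genes, and VCS 2 for 7 of the 14 replication genes.

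**Figure D2:**
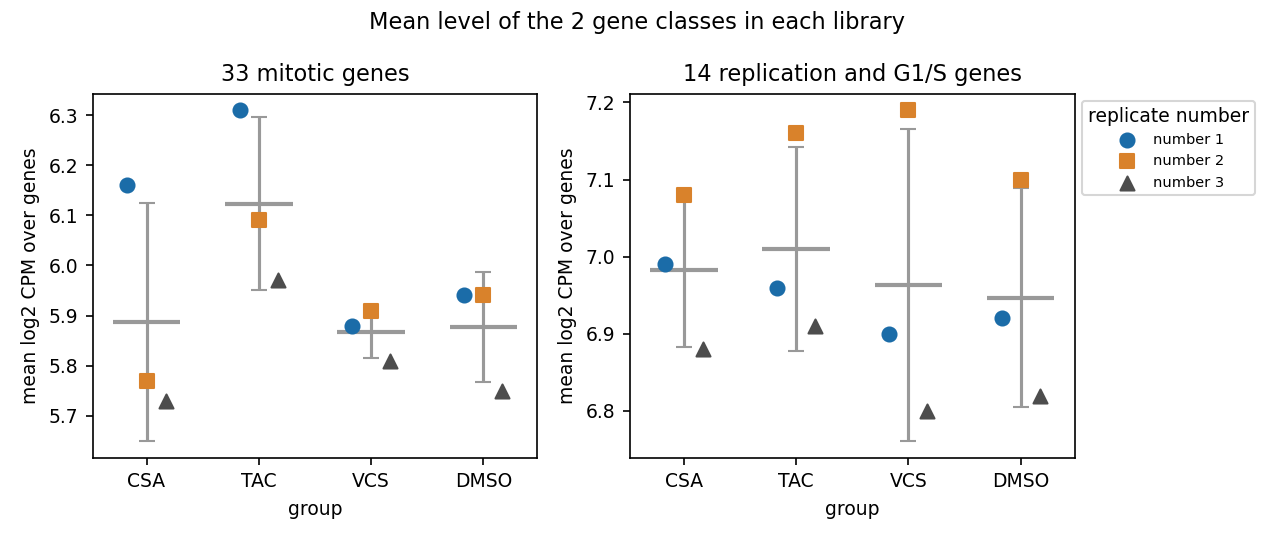
Mean log2 CPM over the 33 mitotic genes (left) and the 14 replication genes (right) in each library, by group; symbols mark the replicate number, horizontal lines the group mean and bars the SD. The 3 TAC libraries, at 5.97 to 6.31, sit above all VCS and DMSO libraries for the mitotic genes, and the library numbered 2 is the highest of each group for the replication genes.

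None of the 47 genes passed edgeR's quasi-likelihood test (Benjamini-Hochberg adjusted p under 0.05 over the 19784 genes tested) in any comparison with DMSO. Few genes of any kind did: 0.0101% of the tested genes were called with CSA, 0.0354% with TAC, 0.00505% with VCS and 0.0101% for the mean of the 3 inhibitors. With TAC, 32 of the 33 mitotic genes had a log2 fold change above 0, with a median of 0.24, and 11 of the 14 replication genes did, with a median of 0.07. Over all tested genes 49% were above 0 with TAC. For the mean of the 3 inhibitors, 27 of 33 mitotic genes (median 0.10) and 11 of 14 replication genes (median 0.03) were above 0. The mitotic median for the mean was 0.04 without DMSO 3 and 0.15 without DMSO 1. At an unadjusted p under 0.05, 9 mitotic genes and 0 replication genes were higher with TAC, against 2.25% of all tested genes in that direction. The 3 TAC libraries lay above the 3 DMSO libraries for 9 mitotic genes and 0 replication genes, against 5.99% of all tested genes. Overlap of groups, here and below, takes no account of the replicate number. Nor does this fit, which counts differences between numbers as spread. No p was computed for the group as a whole, since its genes vary together and were chosen with results of these data known. Without TAC 1 the mitotic median was 0.16 and without DMSO 3 it was 0.17.

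Among the cyclins and kinases that drive mitosis, CDK1, the kinase of mitotic entry, had 97.8, 77.6 and 80 CPM with CSA, 118, 107 and 124 with TAC, 87.4, 88.1 and 101 with VCS and 90.1, 101 and 103 with DMSO. Every TAC library exceeded every library of the other groups. The log2 fold change of CDK1 was 0.25 (SE 0.11, adjusted p = 0.92) with TAC, -0.20 (SE 0.11, adjusted p = 0.939) with CSA and -0.09 (SE 0.11, adjusted p = 0.963) with VCS, each against DMSO. CCNB2 (cyclin B2), a partner of CDK1, had 39, 24.3 and 23.2 CPM with CSA, 41, 33.5 and 31.6 with TAC, 27.9, 28.9 and 25.5 with VCS and 25.9, 29.1 and 23.9 with DMSO. The TAC libraries lay above those of DMSO and VCS, and CSA 1 lay among them; the log2 fold change with TAC was 0.43 (SE 0.17, adjusted p = 0.92). CCNB1 (cyclin B1) had 137, 97.6 and 81.3 CPM with CSA, 147, 115 and 105 with TAC, 101, 100 and 88.7 with VCS and 108, 113 and 88.6 with DMSO. CCNA2 (cyclin A2), which acts in S phase and early mitosis, had 67.7, 46.3 and 49.2 CPM with CSA, 77.8, 70.7 and 54.4 with TAC, 58, 56.6 and 44.2 with VCS and 58, 53.7 and 41.4 with DMSO. FOXM1, the transcription factor of late cell cycle genes, had 89, 69.3 and 62 CPM with CSA, 84.3, 75.8 and 68.7 with TAC, 76, 78.6 and 61.6 with VCS and 73.7, 68.7 and 60.5 with DMSO. For CCNB1, CCNA2 and FOXM1 the TAC and DMSO libraries overlapped, with log2 fold changes for TAC against DMSO of 0.24 (SE 0.18), 0.41 (SE 0.18) and 0.17 (SE 0.14).

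CENPE, the kinesin that carries chromosomes to the spindle equator (chromosome 4, 103105806 to 103198409, minus strand, GENCODE 29 on GRCh38, overlapping no other gene), had the smallest p of the 47 genes for TAC against DMSO. It had 52, 43.3 and 46.2 CPM with CSA, 66.9, 62.1 and 60.4 with TAC, 47.6, 45.5 and 50.3 with VCS and 46.4, 52.6 and 47.1 with DMSO. The 3 TAC libraries stood above the other 9, which lay at 43.3 to 52.6 CPM. The log2 fold change against DMSO was 0.37 (SE 0.09, adjusted p = 0.672) with TAC, -0.05 (SE 0.09, adjusted p = 0.96) with CSA and -0.03 (SE 0.09, adjusted p = 0.981) with VCS. NDC80, a core subunit of the kinetochore complex that grips microtubules, had 37, 31.5 and 30.7 CPM with CSA, 41.5, 40.1 and 43.8 with TAC, 30.1, 31.8 and 37.8 with VCS and 34.6, 36.2 and 36.2 with DMSO. Its TAC libraries also lay above all 9 others, at a log2 fold change against DMSO of 0.23 (SE 0.10, adjusted p = 0.92). Its partner NUF2 had 21.9, 20.5 and 17.8 CPM with CSA, 23.4, 23.9 and 26.7 with TAC, 21, 20.1 and 27.2 with VCS and 19.5, 24.8 and 21.6 with DMSO. The TAC and DMSO libraries of NUF2 overlapped, at 0.16 (SE 0.13). CENPA had 9.91, 7.29 and 6.72 CPM with CSA, 11.2, 9.35 and 8.66 with TAC, 6.56, 8.24 and 7.26 with VCS and 7.97, 9.29 and 6.69 with DMSO. CENPF, a large kinetochore protein that peaks in G2 and M, had 164, 126 and 159 CPM with CSA, 211, 164 and 154 with TAC, 155, 140 and 146 with VCS and 160, 140 and 135 with DMSO. Both overlapped between TAC and DMSO, with a log2 fold change of 0.28 (SE 0.18) for CENPA and 0.28 (SE 0.13) for CENPF.

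BUB1, a kinase of the spindle checkpoint, which delays anaphase until all chromosomes are attached, had 48.5, 32.3 and 31.6 CPM with CSA, 55.6, 43.3 and 33.5 with TAC, 42.6, 39.2 and 31.8 with VCS and 40.6, 34.5 and 28.6 with DMSO. The checkpoint kinase TTK had 36, 26.8 and 32 CPM with CSA, 42.4, 36.8 and 35.9 with TAC, 31.5, 31.5 and 32.5 with VCS and 31.7, 32.8 and 29.8 with DMSO. TTK libraries of TAC lay above those of DMSO and VCS, at a log2 fold change against DMSO of 0.29 (SE 0.11, adjusted p = 0.92), whereas BUB1 overlapped, at 0.35 (SE 0.21), as did the related checkpoint gene BUB1B, at 0.14 (SE 0.12).

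Of the mitotic kinases, AURKA, which matures centrosomes, had 95.3, 69.9 and 57.8 CPM with CSA, 99.4, 83.8 and 65.6 with TAC, 70.2, 80.9 and 56.8 with VCS and 74.9, 73 and 52.7 with DMSO. PLK1, which acts from mitotic entry to cytokinesis, had 48.4, 33.8 and 26.3 CPM with CSA, 51.5, 40.5 and 27.2 with TAC, 31.7, 36.1 and 22.1 with VCS and 33.7, 33.2 and 24.4 with DMSO. BIRC5 (survivin), a subunit of the chromosomal passenger complex, had 88.5, 58 and 44.5 CPM with CSA, 83.1, 71.5 and 55.3 with TAC, 59.8, 67.9 and 53.5 with VCS and 57.2, 55.9 and 48.7 with DMSO. All 3 genes spread widely within the CSA and TAC groups, where library 1 was highest and library 3 lowest. All 3 overlapped between TAC and DMSO, though at each replicate number the TAC library was above the DMSO library. AURKB, the kinase subunit of the same passenger complex, differed in direction, with 66.4, 64.6 and 57.3 CPM with CSA, 63, 64.8 and 69.6 with TAC, 58.1, 57.4 and 62.4 with VCS and 65.2, 73 and 73.2 with DMSO. The VCS libraries lay below all DMSO libraries, and the log2 fold change was -0.25 (SE 0.09, adjusted p = 0.963) with VCS, -0.17 (SE 0.09, adjusted p = 0.939) with CSA and -0.10 (SE 0.09, adjusted p = 0.92) with TAC. AURKB was the mitotic gene that had a log2 fold change below 0 with TAC, and for the mean of the 3 inhibitors it was -0.17 (SE 0.07, adjusted p = 0.884). CDCA8 (borealin), another passenger subunit, had log2 fold changes of 0.14 (SE 0.15) with CSA, 0.26 (SE 0.15) with TAC and 0.05 (SE 0.15) with VCS.

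Kinesins and spindle proteins gave some of the larger log2 fold changes with TAC. KIF20A, a kinesin of the central spindle, had 55.8, 42.9 and 38.5 CPM with CSA, 70.8, 51.9 and 52.6 with TAC, 47, 40.2 and 41.2 with VCS and 46.9, 45.1 and 39.1 with DMSO. KIF11, the kinesin that pushes spindle poles apart, had 67.8, 61.1 and 61.3 CPM with CSA, 81.6, 78.6 and 69.8 with TAC, 63.7, 68.2 and 61.7 with VCS and 65.2, 72 and 59.5 with DMSO. HMMR, a spindle assembly factor, had 36.8, 21 and 20.8 CPM with CSA, 46.6, 35.1 and 28.6 with TAC, 26.6, 27 and 24.5 with VCS and 27.2, 27.6 and 21.1 with DMSO. For KIF20A and HMMR all TAC libraries lay above all DMSO and VCS libraries, with CSA 1 among them; for KIF11 TAC 3 lay below DMSO 2. The log2 fold change with TAC against DMSO was 0.42 (SE 0.15, adjusted p = 0.92) for KIF20A, 0.54 (SE 0.22, adjusted p = 0.92) for HMMR and 0.23 (SE 0.10, adjusted p = 0.92) for KIF11. Without a filter on low counts, HMMR passed the edgeR test for TAC against DMSO (adjusted p = 0.0417). That fit tested 39923 genes and called 131 of them. NUSAP1, which bundles spindle microtubules, had 125, 108 and 116 CPM with CSA, 147, 132 and 150 with TAC, 115, 121 and 133 with VCS and 127, 129 and 132 with DMSO. PRC1, which cross-links microtubules at the central spindle, had 161, 129 and 126 CPM with CSA, 169, 143 and 126 with TAC, 141, 141 and 120 with VCS and 138, 128 and 113 with DMSO. Both overlapped between TAC and DMSO, at 0.14 (SE 0.09) for NUSAP1 and 0.21 (SE 0.13) for PRC1. The other spindle genes, ASPM, DLGAP5, KIF23, KIF2C and TPX2, had log2 fold changes with TAC of 0.31, 0.39, 0.06, 0.20 and 0.22, with SEs of 0.08 to 0.20.

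CDC20, which activates the anaphase-promoting complex, had 94.2, 61.8 and 47.5 CPM with CSA, 89.2, 69.5 and 55.5 with TAC, 61.3, 60.2 and 51.3 with VCS and 67, 64.5 and 50.2 with DMSO. UBE2C, the ubiquitin-conjugating enzyme that serves that complex, had 67.9, 63.1 and 46.4 CPM with CSA, 71, 64.2 and 69.1 with TAC, 51.9, 61.3 and 68.7 with VCS and 63.7, 74 and 66.2 with DMSO. Both overlapped between every inhibitor and DMSO, with a log2 fold change for TAC of 0.24 (SE 0.22) for CDC20 and 0.00 (SE 0.14) for UBE2C. PTTG1 (securin) holds back the separation of sister chromatids until anaphase. It had 65.4, 54.9 and 45.9 CPM with CSA and 69.4, 63.9 and 71.9 with TAC. With VCS it had 52.3, 51.6 and 65 CPM, and with DMSO 58.7, 59.8 and 61.7. Its TAC libraries lay above the DMSO libraries, at 0.19 (SE 0.13, adjusted p = 0.92). MKI67, which coats mitotic chromosomes and is the usual marker of cycling cells, had 230, 177 and 228 CPM with CSA, 274, 211 and 178 with TAC, 230, 209 and 163 with VCS and 220, 181 and 174 with DMSO. TOP2A had 382, 282 and 341 CPM with CSA, 448, 376 and 413 with TAC, 335, 332 and 390 with VCS and 364, 345 and 360 with DMSO. MKI67 overlapped between all groups, at a log2 fold change of 0.21 (SE 0.17, adjusted p = 0.92) with TAC, whereas the TAC libraries of TOP2A lay above the DMSO libraries, at 0.21 (SE 0.12, adjusted p = 0.92).

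**Figure D3:**
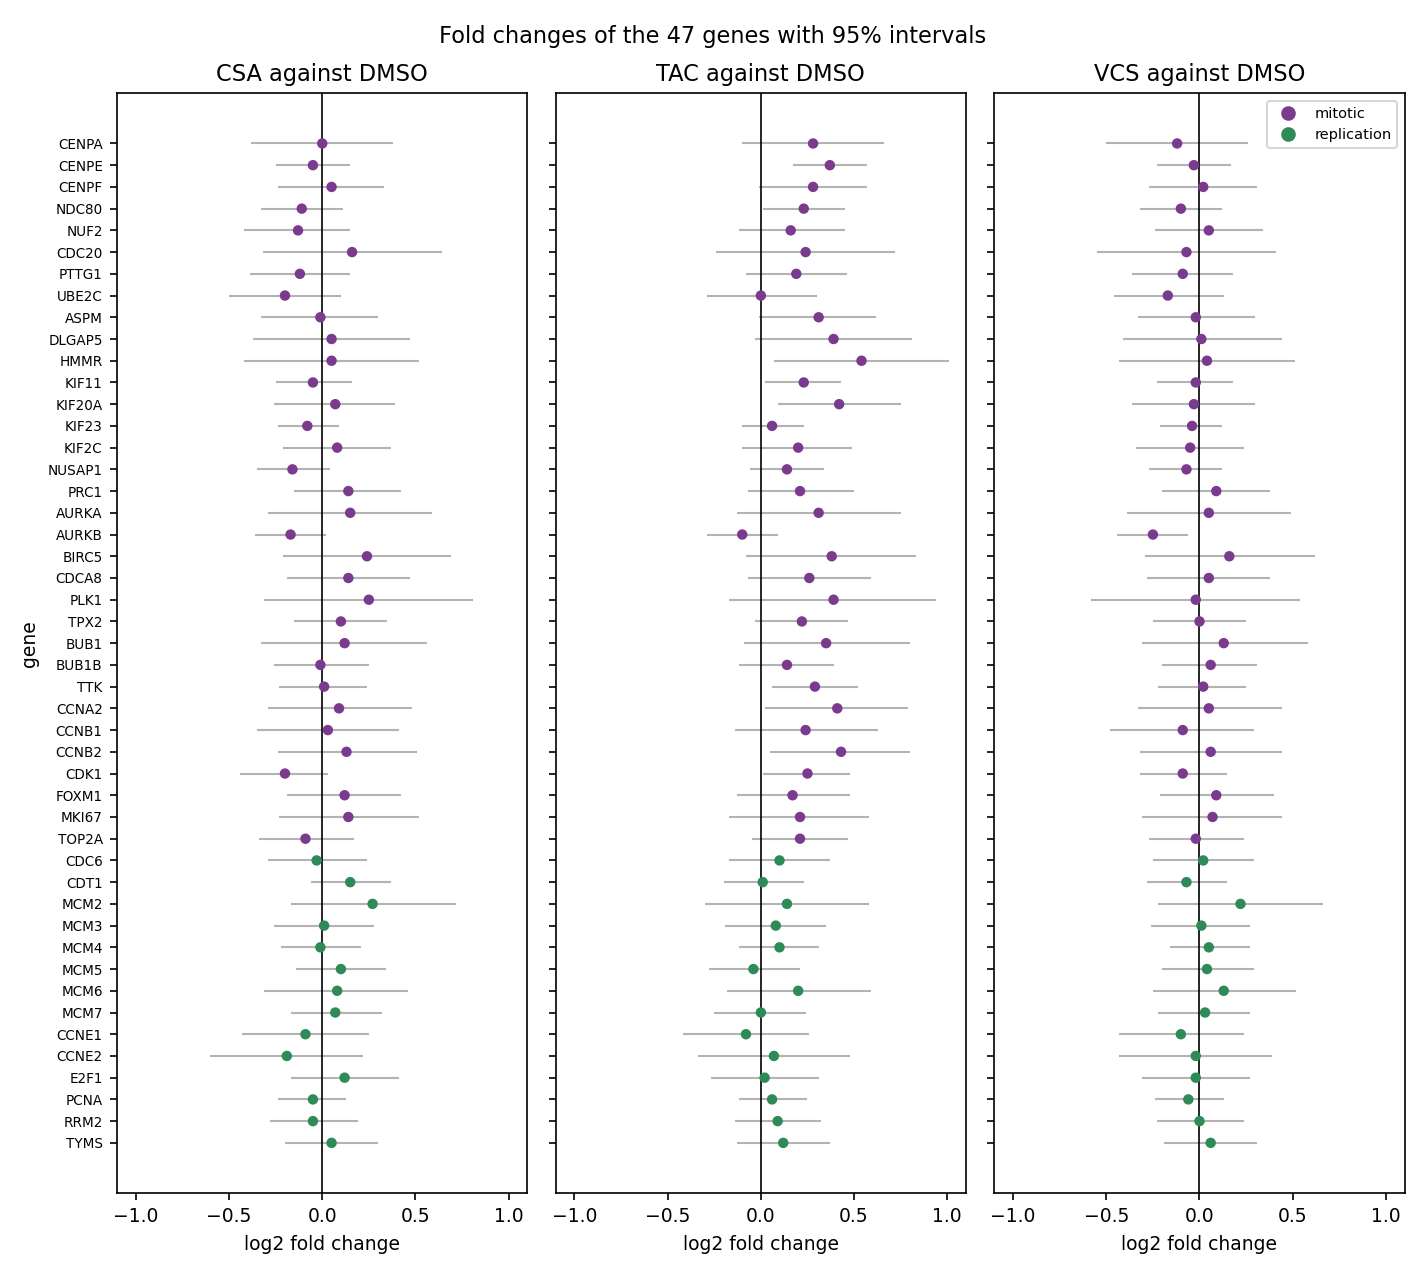
Log2 fold change of each of the 47 genes against DMSO for CSA (left), TAC (middle) and VCS (right), with 95% intervals; purple marks mitotic and green replication genes. With TAC, 32 of 33 mitotic points lie right of 0 while the green points gather around it, and no gene passed the adjusted threshold.

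With CSA the mitotic genes had a median log2 fold change of 0.05, with 19 of 33 above 0, and with VCS a median of -0.02, with 16 of 33 above 0. In the fit on group alone, no mitotic gene had an unadjusted p under 0.05 with CSA, against 3.75% of tested genes in either direction. AURKB was the only 1 with VCS, against 3.27%. In CSA cultures AURKB and CDK1 had the smallest p of the mitotic genes below 0. Of those above 0, it belonged to BIRC5 at 0.24 (SE 0.21, adjusted p = 0.939) and PRC1 at 0.14 (SE 0.13, adjusted p = 0.939), and without CSA 1 the log2 fold change of BIRC5 was -0.07. In VCS cultures UBE2C followed AURKB below 0, at -0.17 (SE 0.14, adjusted p = 0.963). Above 0, BIRC5 at 0.16 (SE 0.21, adjusted p = 0.963) and PRC1 at 0.09 (SE 0.13, adjusted p = 0.963) had the smallest p of the mitotic genes. The CSA median changed sign when either CSA 1 or DMSO 3 was left out: without CSA 1 it was -0.10 and without DMSO 3 it was -0.04.

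Replication genes differed little between each inhibitor and DMSO. Their median log2 fold change was 0.03 with CSA (8 of 14 above 0), 0.07 with TAC (11 of 14) and 0.01 with VCS (9 of 14). With the replicate number as a block these medians were 0.03, 0.08 and 0.01. In the fit on group alone, no replication gene had an unadjusted p under 0.05 against DMSO. That fit counts differences between replicate numbers as spread. Of the MCM helicase, MCM2 had 116, 114 and 103 CPM with CSA, 107, 120 and 76.3 with TAC, 110, 136 and 75.6 with VCS and 102, 99.4 and 73.6 with DMSO. The CSA libraries of MCM2 lay just above the DMSO libraries, at 0.27 (SE 0.20, adjusted p = 0.939), and the VCS libraries overlapped them, at 0.22 (SE 0.20, adjusted p = 0.963), with a range of 0.01 to 0.42 when 1 library was left out. MCM6 had 70.9, 72.9 and 58.2 CPM with CSA, 71.9, 84.3 and 64.5 with TAC, 69.4, 87.2 and 53.7 with VCS and 67.2, 74.2 and 50.3 with DMSO. MCM7 had 256, 263 and 244 CPM with CSA, 233, 273 and 219 with TAC, 234, 284 and 221 with VCS and 240, 257 and 228 with DMSO. MCM6 and MCM7 overlapped in every comparison with DMSO, with log2 fold changes for TAC of 0.20 (SE 0.18, adjusted p = 0.92) for MCM6 and 0.00 (SE 0.11, adjusted p = 1) for MCM7. MCM5 had 149, 176 and 154 CPM with CSA, 135, 162 and 139 with TAC, 143, 174 and 144 with VCS and 141, 162 and 144 with DMSO, and MCM4 had 270, 273 and 271 CPM with CSA, 290, 314 and 271 with TAC, 284, 312 and 251 with VCS and 272, 290 and 255 with DMSO. Neither passed, with log2 fold changes of -0.04 (SE 0.11) for MCM5 and 0.10 (SE 0.10) for MCM4 with TAC.

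CDC6, which with CDT1 loads the helicase, had 115, 122 and 108 CPM with CSA, 118, 141 and 119 with TAC, 111, 140 and 105 with VCS and 118, 130 and 104 with DMSO. CDT1 had 57, 56.9 and 49 CPM with CSA, 48.1, 51.6 and 48.2 with TAC, 42.7, 50.4 and 46.8 with VCS and 44.9, 54.1 and 47.7 with DMSO. The log2 fold change of CDT1 was 0.15 (SE 0.10, adjusted p = 0.939) with CSA and -0.07 (SE 0.10, adjusted p = 0.963) with VCS, and that of CDC6 was -0.03 (SE 0.12) with CSA and 0.02 (SE 0.12) with VCS. PCNA had 447, 418 and 403 CPM with CSA, 429, 462 and 483 with TAC, 419, 435 and 410 with VCS and 435, 454 and 427 with DMSO. RRM2, the regulated subunit of ribonucleotide reductase, had 251, 249 and 234 CPM with CSA, 257, 295 and 253 with TAC, 241, 285 and 231 with VCS and 249, 278 and 230 with DMSO. TYMS, which makes thymidylate, had 261, 245 and 210 CPM with CSA, 246, 266 and 238 with TAC, 247, 269 and 206 with VCS and 233, 245 and 213 with DMSO. For TAC against DMSO the 95% interval of the log2 fold change was -0.12 to 0.25 for PCNA. It was -0.14 to 0.32 for RRM2 and -0.13 to 0.37 for TYMS.

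E2F1, the activating E2F, had 100, 102 and 84.4 CPM with CSA, 88.4, 97.3 and 81.6 with TAC, 73, 102 and 83.7 with VCS and 78.5, 100 and 84.2 with DMSO. CCNE1 had 22.5, 29 and 20.6 CPM with CSA, 23.3, 26.9 and 22.4 with TAC, 20.7, 29.2 and 21.9 with VCS and 24.9, 28.9 and 22.9 with DMSO. CCNE2 (cyclin E2) had 50.6, 68.6 and 53.5 CPM with CSA, 59.6, 82.2 and 65 with TAC, 59.3, 79.5 and 55.5 with VCS and 56, 84.4 and 56.9 with DMSO. Within each group the library numbered 2 was the highest for all 3 genes, and the groups overlapped. The log2 fold change with CSA was -0.19 (SE 0.19, adjusted p = 0.939) for CCNE2, which was 0.03 without DMSO 2, and with TAC it was -0.08 (SE 0.16, adjusted p = 0.942) for CCNE1 and 0.02 (SE 0.13) for E2F1. CCNE1 and MCM5 were the replication genes with the smallest p below 0 with TAC, and neither passed.

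**Figure D4:**
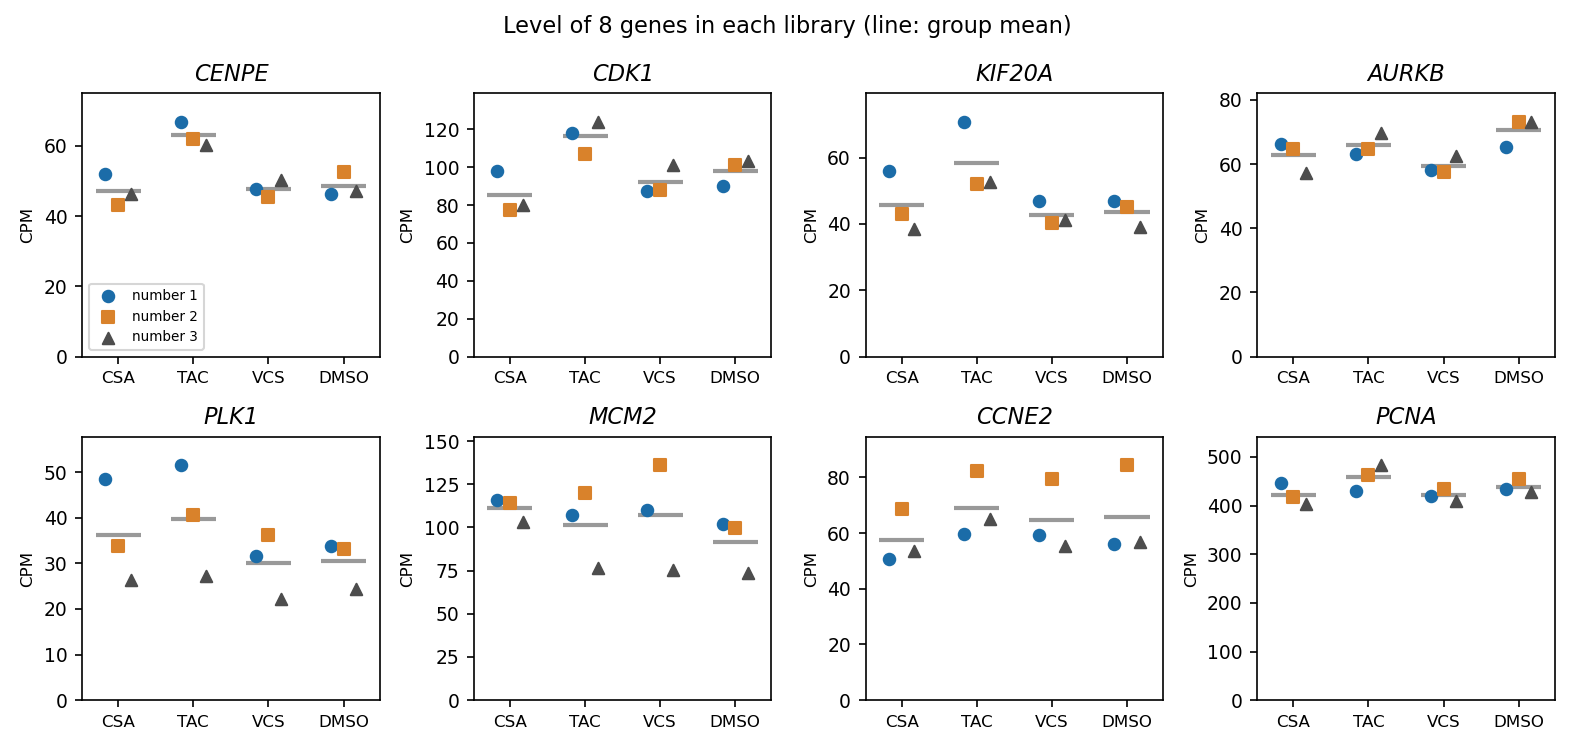
CPM of CENPE, CDK1, KIF20A, AURKB, PLK1, MCM2, CCNE2 and PCNA in each library, by group, with the replicate number as symbol and the group mean as a line. For CENPE and CDK1 all TAC points lie above all other points; for CCNE2 the square of number 2 is the highest of each group, and for PLK1 and MCM2 the triangle of number 3 is the lowest of each group.

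The inhibitors were also set against each other at the same dose and time, as 3 pairs, each adjusted over all genes. These comparisons share libraries with those above, so they are not separate evidence. No cell cycle gene passed, against 0.0303% of all tested genes called for CSA against TAC, 0.0253% for TAC against VCS and 0.0101% for CSA against VCS. For CSA against TAC, 0 of the 33 mitotic genes had a log2 fold change above 0, with a median of -0.24, and 5 of the 14 replication genes did, with a median of -0.07. The mitotic median was -0.14 without TAC 1, -0.16 without CSA 3 and -0.39 without CSA 1. An unadjusted p under 0.05 was reached by 12 mitotic genes and 0 replication genes on the lower side, against 3.18% of all tested genes. The groups did not overlap, with CSA lower, for 7 mitotic genes and 1 replication gene, RRM2, against 6.74% of all tested genes. CENPE had -0.42 (SE 0.09, adjusted p = 0.46) and CDK1 -0.45 (SE 0.11, adjusted p = 0.494); with DESeq2 both passed for CSA against TAC, with adjusted p = 0.0165 for CENPE and adjusted p = 0.0447 for CDK1. In the other direction CDT1 had 0.14 (SE 0.10, adjusted p = 0.795) and MCM5 0.14 (SE 0.11, adjusted p = 0.83).

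For TAC against VCS, 33 of 33 mitotic genes had a log2 fold change above 0, with a median of 0.26, and 11 of 14 replication genes did, with a median of 0.06. Without TAC 1 the mitotic median was 0.16. An unadjusted p under 0.05 was reached by 11 mitotic genes and 0 replication genes on the higher side, against 1.61% of all tested genes. The TAC libraries lay above the VCS libraries for 13 mitotic genes and 0 replication genes, against 4.12% of all tested genes. CENPE had 0.40 (SE 0.09, adjusted p = 0.459) and passed with DESeq2 (adjusted p = 0.0388), and NDC80 had 0.33 (SE 0.10, adjusted p = 1). Among the replication genes PCNA had 0.12 (SE 0.09, adjusted p = 1) and RRM2 0.09 (SE 0.11, adjusted p = 1).

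CSA and its analog VCS did not differ past the threshold for any of the 47 genes. The mitotic median for CSA against VCS was 0.03, with 20 of 33 genes above 0, and the replication median was 0.00, with 8 of 14 above 0. CDT1 was the only gene with an unadjusted p under 0.05, at 0.22 (SE 0.10, adjusted p = 1), against 2.54% of all tested genes in either direction. Log2 fold changes ran from -0.18 for NUF2 to 0.27 for PLK1, and their 95% intervals reached from -0.58 to 0.83, so differences of that size between the analogs cannot be set aside at 3 libraries a group. For CENPE the interval was -0.22 to 0.18, for CDC20 -0.25 to 0.72, for E2F1 -0.14 to 0.43 and for CCNE2 -0.58 to 0.24.

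Further genes of the cycle were taken from 3 lists. Of 50 other mitotic genes, 40 had a log2 fold change above 0 with TAC, with a median of 0.15, 22 with CSA (median -0.02) and 24 with VCS (median -0.01), each against DMSO. Of 44 other replication genes, 31 were above 0 with TAC (median 0.08), 16 with CSA (median -0.03) and 20 with VCS (median -0.01). Of 27 G1 and RB-family genes, 16 were above 0 with TAC (median 0.07), 12 with CSA (median -0.02) and 13 with VCS (median 0.00). None of these genes passed against DMSO. The smallest p with TAC belonged to the spindle kinesins KIF15, at 0.26 (SE 0.09), and KIF4A, at 0.33 (SE 0.14), to the replisome factor WDHD1, at 0.24 (SE 0.09), and to RB1, the retinoblastoma protein itself, at 0.27 (SE 0.12), each with adjusted p = 0.92.

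More of these genes passed between replicate numbers than between the groups, in fits that differ. The comparison of numbers held both group and number, and had more libraries on each side than a comparison of 2 groups. The counts therefore do not compare sizes of effect. The libraries numbered 3 were set against the mean of those numbered 1 and 2 in an edgeR fit with group and number, and 5248 of the 19784 tested genes passed (26.5%), 12.9% of all tested genes on the lower side. Of the cell cycle genes 23 of 47 passed, 15 mitotic and 8 replication, and all 23 were lower in the libraries numbered 3. The sources used here do not say what the number stands for. Mitochondrial transcripts also took a larger share in these libraries, and their part in the difference was not tested.

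Among the 47 genes the largest difference was that of PLK1, at -0.62 (SE 0.09, adjusted p = 8.62e-04), which had 26.3, 27.2, 22.1 and 24.4 CPM in the CSA, TAC, VCS and DMSO libraries numbered 3, against 31.7 to 51.5 CPM in the other 8. AURKA was lower by a log2 fold change of -0.47 (SE 0.08, adjusted p = 0.00139), and CDC20 of -0.46 (SE 0.09, adjusted p = 0.00339). The checkpoint kinase BUB1, at -0.41 (SE 0.07, adjusted p = 0.00146), BIRC5, at -0.41 (SE 0.10, adjusted p = 0.0121), and the cyclins CCNA2, at -0.36 (SE 0.07, adjusted p = 0.00396), and CCNB1, at -0.33 (SE 0.08, adjusted p = 0.0103), were lower too. So was FOXM1, at -0.28 (SE 0.06, adjusted p = 0.00479). Of the helicase, MCM2 fell in the libraries numbered 3, at -0.47 (SE 0.08, adjusted p = 0.00214), as did MCM6, at -0.40 (SE 0.06, adjusted p = 0.001). MCM7, at -0.16 (SE 0.05, adjusted p = 0.044), and MCM3, at -0.14 (SE 0.05, adjusted p = 0.0496), were lower by less, beside TYMS, at -0.21 (SE 0.06, adjusted p = 0.014), CDC6, at -0.18 (SE 0.05, adjusted p = 0.021), CCNE1, at -0.22 (SE 0.06, adjusted p = 0.0153), and CCNE2, at -0.21 (SE 0.05, adjusted p = 0.0122). Other mitotic genes that passed were HMMR, DLGAP5, CDCA8, PRC1, KIF20A, KIF2C and TPX2, with log2 fold changes from -0.37 to -0.17.

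Of the 9 mitotic genes with an unadjusted p under 0.05 for TAC against DMSO, KIF20A, HMMR and CCNA2 were among the 23 and the rest were not. Of the rest, CCNB2, at -0.26 (SE 0.10, adjusted p = 0.0741), and KIF11, at -0.14 (SE 0.05, adjusted p = 0.0655), were lower in the libraries numbered 3 and just missed the threshold. CENPE had a log2 fold change of -0.02 (SE 0.06, adjusted p = 0.809) in the libraries numbered 3, CDK1 0.08 (SE 0.07, adjusted p = 0.43), NDC80 0.07 (SE 0.07, adjusted p = 0.515) and TTK -0.04 (SE 0.07, adjusted p = 0.678). TOP2A, NUSAP1, NUF2, AURKB, KIF23 and PTTG1 also had values above 0 that did not pass, of 0.02 to 0.08, and PCNA had -0.03 (SE 0.05, adjusted p = 0.768). AURKA, BUB1, CCNA2, CCNB1, CDC20, CDCA8, DLGAP5, FOXM1, MCM2, MCM6, PLK1 and PRC1, 12 of the 23, passed whichever of the 12 libraries was left out. Without DMSO 3, 14 cell cycle genes passed, beside 3535 of all genes. Without VCS 3, 17 cell cycle genes passed, beside 2777 of all genes. In the wider lists, 4 of 50 other mitotic genes were higher and 17 lower, 6 of 44 other replication genes were higher and 10 lower, and 2 of 27 G1 and RB-family genes were higher and 8 lower. Of all tested genes, 13.6% were higher and 12.9% lower. Examples are the licensing gene ORC1, at -0.62 (SE 0.09), and PIMREG, at -0.56 (SE 0.07), on the lower side, and the origin gene ORC6, at 0.33 (SE 0.06), and the centromere gene CENPK, at 0.30 (SE 0.06), on the higher side.

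**Figure D5:**
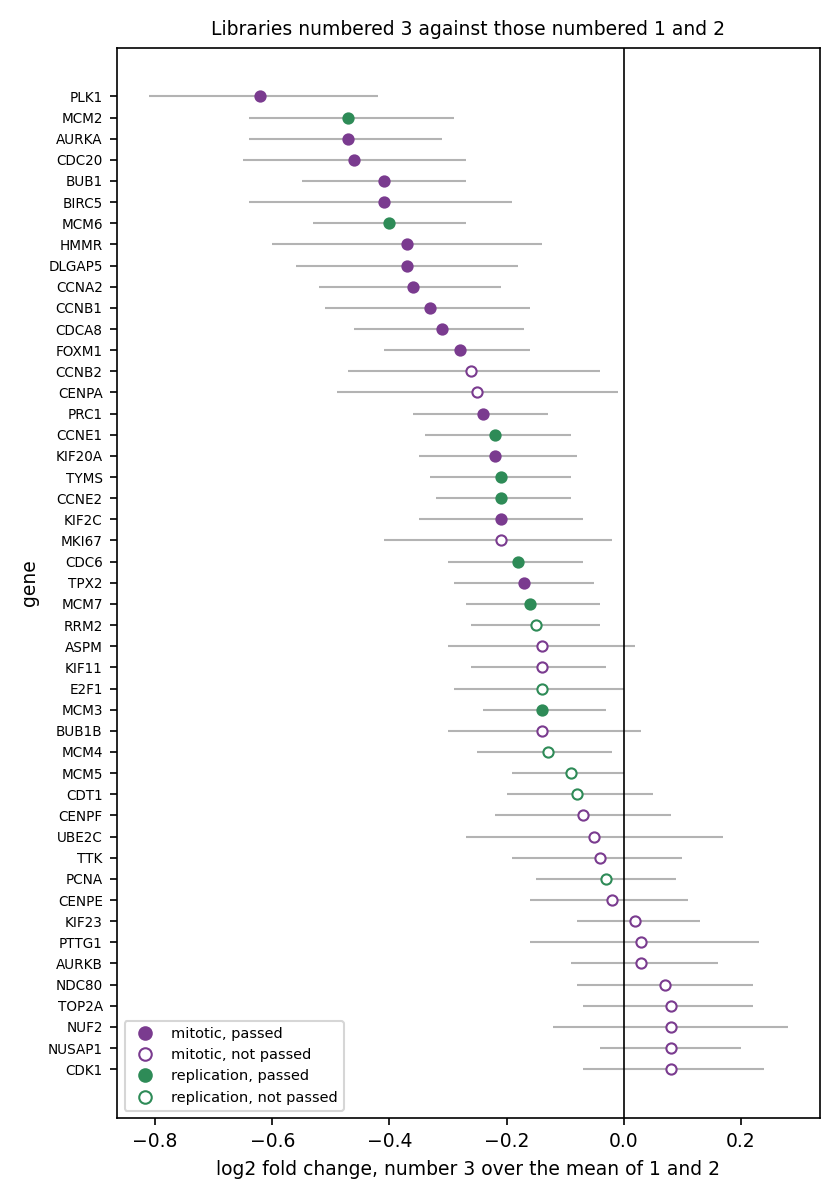
Log2 fold change of each of the 47 genes in the 4 libraries numbered 3 over the mean of those numbered 1 and 2, with 95% intervals; filled circles passed the adjusted threshold, purple for mitotic and green for replication genes. The 23 filled circles all lie left of 0, and the genes at the bottom, such as CDK1 and TOP2A, lie at up to 0.08.

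The 2 classes differed in which replicate number was highest. The library numbered 2 held the highest of the 3 levels in all 4 groups for 9 of the 14 replication genes (64.3%), which were CCNE1, CCNE2, CDC6, E2F1, MCM3, MCM4, MCM5, MCM6 and MCM7, and for 0 of the 33 mitotic genes, against 3.9% of all tested genes. The library numbered 1 held the highest level in all 4 groups for 8 mitotic genes (24.2%), which were ASPM, BUB1, CCNA2, CDC20, CENPF, KIF20A, MKI67 and PRC1, and for no replication gene, against 5.2% of all tested genes. Number 3 held the lowest level in all 4 groups for 13 mitotic genes (39.4%) and for 5 replication genes (35.7%), MCM2, MCM6, MCM7, RRM2 and TYMS, against 10.9% of all tested genes. The genes of each class vary together, so these counts are not counts of independent observations, and they were noticed in these same libraries. CCNE2 shows the pattern plainly, with 68.6, 82.2, 79.5 and 84.4 CPM in the CSA, TAC, VCS and DMSO libraries numbered 2, against 50.6 to 65 CPM in the other 8. TOP2A had its lowest level of each group in the library numbered 2, the only mitotic gene to do so, and MCM5 had its lowest in the library numbered 1.

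Across the 12 libraries the highest level of a mitotic gene was 1.19 to 2.34 times its lowest, with a median of 1.6, and that of a replication gene 1.2 to 1.85 times, with a median of 1.33. Overlapping annotation may limit some of these values, since strand use in the counting is not stated. In GENCODE 29, 24 of the 47 genes overlap any other gene, counted from gene start to gene end with introns. Of the 47, 17 overlap a gene on the other strand. Where exons are shared, reads of the pair may not be told apart. The 17 are CCNA2, CCNB2, CCNE2, CENPF, FOXM1, HMMR, KIF11, KIF20A, KIF23, KIF2C, MCM2, MCM7, NDC80, NUF2, PLK1, PRC1 and TYMS. In all, 10 genes, AURKA, BUB1, CCNB2, CDC20, DLGAP5, MKI67, PCNA, RRM2, TYMS and UBE2C, have annotated pseudogenes by name, and how reads that fit both were shared is not stated. CENPE and CDK1 are in neither list.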

How the data were processed

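Per the labels' protocols, the 12 libraries were poly(A)-selected, held ERCC RNAs and carried in-line UMIs. The authors deposited estimated counts per gene as whole numbers, with no scaling between libraries seen in them; Salmon and GRCh38 are named in the submitters' processing notes, without versions. Whether UMIs were collapsed is not stated, so counts are not known to be independent molecules. Replicate numbers are those of the titles.

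Genes were kept by filterByExpr (minimum count 10) of edgeR 4.0.16 in R 4.3.3, leaving 19784, scaled by TMM and fitted by glmQLFit and glmQLFTest on group alone over the 12 libraries together (8 residual degrees of freedom). Adjusted p-values are Benjamini-Hochberg over all genes tested, two-sided, with a threshold of 0.05. Log2 CPM used a prior count of 2. The replicate numbers were compared in a fit with group and number. The test was checked on simulated counts. These held no difference between replicate numbers shared across genes, and the pass mark was set on changes larger than those described here. The check therefore does not bear on how well small changes are found beside such differences. The alternatives were RLE size factors, no filter on low counts, DESeq2 1.42.0, the compared groups alone, a replicate block, the libraries numbered 3 left out and each library left out in turn.

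The 47 genes, the further lists and the tests were chosen with earlier results of these data known. Values per library are given for 29 anchor genes and, in each comparison, the 2 genes of each class and direction with the smallest p; TTK, HMMR and PTTG1 were added after their values were seen. No libraries of a group held identical values, so none was treated as a duplicate. Positions came from GENCODE 29. The values of 1 podocyte marker are not reported here.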

Additional observations from a re-analysis of the deposited data

How the results depend on the processing

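No cell cycle gene passed in any inhibitor comparison with edgeR under RLE size factors, the compared groups alone, the libraries numbered 3 left out or any 1 library left out (0 in each). Without a filter on low counts 1 gene passed for TAC against DMSO (HMMR), and with DESeq2 2 passed for CSA against TAC (CENPE and CDK1) and 1 for TAC against VCS (CENPE). The median log2 fold change of the mitotic genes with TAC against DMSO was 0.16 to 0.34 when libraries were left out in turn and 0.25 without the libraries numbered 3. Between CSA and DMSO it was -0.10 to 0.12.

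The count of all genes that passed was small and moved with the setting. For CSA against DMSO (2 genes, 741 at an unadjusted p under 0.05) it was 86 without the filter, 9 with DESeq2 and 0 without the libraries numbered 3. For TAC against DMSO (7, with 919 unadjusted) it was 131, 38 and 3 in the same order, and 1 with the compared groups alone. For VCS against DMSO (1, with 647 unadjusted) it was 69 without the filter, 7 with DESeq2 and 0 with the compared groups alone. For CSA against TAC (6, with 1488 unadjusted) it was 87, 46, 1 without the libraries numbered 3 and 1 with the compared groups alone. For CSA against VCS (2, with 503 unadjusted) it was 70, 12 and 6, the last without the libraries numbered 3. For TAC against VCS (5, with 718 unadjusted) it was 101, 40, 9 without the libraries numbered 3 and 0 with the compared groups alone. For the mean of the inhibitors (2, with 725 unadjusted) it was 89, 9 and 0. No filter meant 39923 genes were tested. The cause of the other shifts was not tested.

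With 1 library left out, the count of all genes ranged from 0 to 2 for CSA against DMSO, 0 to 10 for TAC against DMSO, 0 to 8 for VCS against DMSO, 0 to 6 for CSA against TAC, 0 to 7 for CSA against VCS, 0 to 12 for TAC against VCS and 0 to 4 for the mean. For the libraries numbered 3, it ranged from 2777 to 6636 and that of cell cycle genes from 14 to 28. With DESeq2 27 cell cycle genes passed, beside 4986 of all 19784 genes tested. Some log2 fold changes changed sign with 1 library left out: with CSA, BIRC5 ranged from -0.07 to 0.44 and CCNE2 from -0.33 to 0.03; with TAC, CCNE1 ranged from -0.16 to 0.02 and MCM5 from -0.12 to 0.04; with VCS, MCM6 ranged from -0.06 to 0.29 and CDT1 from -0.13 to 0.01.

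With the replicate number as a block, 6 genes passed for CSA against DMSO (2254 unadjusted). For TAC against DMSO 41 passed (2597 unadjusted) and for VCS against DMSO 0 (2179 unadjusted). Between inhibitors 65 passed for CSA against TAC (3145 unadjusted), 6 for CSA against VCS (1244) and 41 for TAC against VCS (1559). For the mean 3 passed (2552 unadjusted). Each comparison had 0 cell cycle genes among those that passed. Every unadjusted count was above that of the fit on group alone. Deviations of same-numbered libraries from their group means correlated at 0.091 to 0.313 for number 1, 0.007 to 0.248 for number 2 and 0.185 to 0.532 for number 3, and 11 of 12 libraries correlated best with a library of their own number. Pairs of unlike number correlated at -0.427 to 0.263, with a median of -0.086. Not every same-numbered pair was above 0.1, so the main fit was left on group alone. That fit counts differences between numbers as spread within groups.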
